A study of Homo sapiens with 24 samples.

Results

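The 10 genes described here encode immediate early transcription factors, most of them subunits of activator protein 1 (AP-1). They are FOS, FOSB, FOSL1 and FOSL2 of the FOS family, JUN, JUNB and JUND of the JUN family, and ATF3, EGR1 and IER2. The genes were listed by name, with earlier results of these data known, and each symbol matched 1 of the 61860 Ensembl identifiers in the count tables. RNA-seq had been done in 4 experiments with OE33, a human cell line from an adenocarcinoma of the lower esophagus, with 3 treated and 3 control libraries in each. In the xenograft experiment, male BALB/c-nu mice that were 4 weeks old at purchase were kept on high-fat feed (HFD group) or on normal feed (ND group) for 8 weeks. OE33 cells were then injected under the skin, each group stayed on its feed, and tumors were taken 3 weeks later. Nude mice lack mature T cells. In the other experiments cultured OE33 cells were transfected with a plasmid for HA-tagged TRIM15 (HA-TRIM15) or empty vector (EV) for 48 h, with a short hairpin RNA vector against YY2 (shYY2) or shControl for 72 h, or with a vector against FOXRED1 (shFOXRED1) or its own shControl for 72 h. TRIM15 encodes an E3 ubiquitin ligase, YY2 a zinc finger transcription factor related to YY1, and FOXRED1 an assembly factor of mitochondrial complex I. All libraries came from the same line, transfection was with a lipid reagent, and neither the labels nor the methods say which hairpin was sequenced or whether replicates were separate cultures or animals. P-values therefore measure the spread between these libraries, which may be technical.

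AP-1 is a dimer of proteins that pair through a leucine zipper and grip DNA through a basic region. JUN proteins can pair with each other or with FOS proteins, while FOS proteins need a JUN partner, so the makeup of the pool sets which dimers can form. Transcription of immediate early genes starts within minutes of a growth factor, cytokine or stress signal through kinase cascades and factors such as SRF and its ELK partners, without new protein synthesis, and most of their mRNAs are short-lived. FOSL1, encoding FRA-1, responds later and stays high in many carcinoma lines, ATF3 is a stress-induced member of the ATF family, and EGR1 and IER2 are induced with FOS but belong to other protein families. In esophageal epithelium and its tumors, AP-1 drives genes for proteases, growth factors, chemokines and keratins.

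Proximal promoter sequences are shown for 8 members, because they show which letters known to bind such factors lie next to each start site. They were read from RefSeq's promoter table (GRCh38.p14), in which 9 of the 10 members had an entry, FOSL1 being the other, and the 250 bases before each listed start were searched on both strands. Capitals mark the motif found, and each line runs 5′ to 3′ on the strand of the gene.
JUN, minus strand, chr1:58784096-58784125: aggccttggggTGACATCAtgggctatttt
ATF3, plus strand, chr1:212565273-212565302: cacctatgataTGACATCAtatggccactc
JUND, minus strand, chr19:18281804-18281833: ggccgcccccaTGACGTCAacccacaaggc
FOS, plus strand, chr14:75278783-75278812: taaaacgcttgtTATAAAagcagtggctgc
FOSB, plus strand, chr19:45467954-45467983: gggtcccgggcaTATAAAtacaggctggcg
JUNB, plus strand, chr19:12791443-12791472: tgactagcgcggTATAAAggcgtgtggctc
EGR1, plus strand, chr5:138465370-138465409: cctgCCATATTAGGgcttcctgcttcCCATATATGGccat
IER2, plus strand, chr19:13150347-13150376: ccctctcctcaGCCATCTTggttgtgggca
JUN and ATF3 hold the same 8 letters, TGACATCA, a variant of the AP-1 and CREB site, which were found in 2.36% of the 34788 promoters searched. The full cyclic AMP response element TGACGTCA, in JUND, was found in 1.638%. The TATA letters TATAAA occurred in FOS, FOSB and JUNB, beginning at positions -33, -30 and -31 from the start. Before a further listed ATF3 start they began much further away, at position -230. These letters were found in 10.768% of all promoters. EGR1 holds 2 CArG boxes, the site of SRF, a motif found in 1.167% of promoters. Letters more than 250 bases before a start were not searched, so a member without a match may hold the motif further upstream. The letters GCCATNTT, the core bound by YY1, lie in IER2 and, overlapping a CArG box, in EGR1, and in 3.858% of promoters. The classical AP-1 site (TGACTCA or TGAGTCA) was in 0 of the 9 members' windows and in 4.214% of all promoters. The JUN and FOS windows lie upstream of the RefSeq start but inside the span of the gene as GENCODE 29 draws it. A match is a description of letters and was not tested for binding.

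Total counts ranged from 14299807 to 45994561 per library, and the 10 members together took between 690 and 4488 CPM (a count divided by the TMM-adjusted total of its library and rescaled). The targeted genes followed the labels: TRIM15 had 111, 130 and 181 counts with HA-TRIM15 and 0 in the 3 EV libraries, YY2 11, 12 and 11 counts with shYY2 against 43, 40 and 46, and FOXRED1 183, 207 and 129 counts with shFOXRED1 against 322, 259 and 254. TRIM15 had 14, 12 and 24 counts in the HFD and 1, 0 and 0 in the ND xenografts, and FOXRED1 was also lower with shYY2, at 313, 268 and 330 counts against 612, 544 and 647. Whether reads were counted by strand is not settled, because the labels name a directional kit and the methods do not. JUNB overlaps HOOK2 on the opposite strand by 259 exonic bases, so JUNB reads could be shared with HOOK2, whose counts were 10.4% to 50.3% of those of JUNB. IER2 overlaps the antisense gene AC011446.2 by 946 bases, which had 0 counts in every library. With 3 libraries against 3, an exact permutation test of a single gene cannot go below p = 0.1, so the tests below are from edgeR's fit across all genes.

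In the xenografts, all 10 members differed between HFD and ND, 6 of them higher in the HFD group by 1.25-fold to 1.39-fold and 4 lower. Over all 17012 tested genes the same threshold, an adjusted p under 0.05, called 25.6% higher and 23.9% lower, so a call alone sets no gene apart in this comparison. The median log2 fold change of the 10 members was 0.35, beside -0.012 over all genes. HFD and ND values were fully separated for each of the 10 members and for 56.2% of all genes. With a 2-fold change required as well, 0 members were called, beside 1.22% of genes higher and 2.61% lower.

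The FOS family split. FOS, the founding member, had 395, 382 and 396 CPM in the 3 HFD xenografts and 440.4, 447 and 463 CPM in the 3 ND xenografts. FOSB, its closest relative, had 195, 190.4 and 195 CPM with HFD and 254, 263 and 261 CPM with ND. Every HFD xenograft lay below every ND xenograft for both genes. FOS fell by 0.20 on the log2 scale (SE 0.034, adjusted p = 0.000124; like every adjusted p below, it is Benjamini-Hochberg adjusted over all genes in edgeR's quasi-likelihood fit) and FOSB by 0.42 (SE 0.034, adjusted p = 2.8e-08). FOSL1 had 407, 396 and 447 CPM with HFD against 294, 312 and 328 CPM with ND. FOSL2, which encodes FRA-2, had 306, 311 and 314 CPM against 223, 226 and 219.5 CPM. Both FRA genes were thus higher in each HFD xenograft, with log2 fold changes of 0.42 (SE 0.047, adjusted p = 1.48e-06) and 0.48 (SE 0.033, adjusted p = 5.64e-09).

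The JUN family split as well. JUN had 773, 779 and 808 CPM with HFD and 576, 628 and 618 CPM with ND, a log2 fold change of 0.37 (SE 0.038, adjusted p = 4.6e-07). JUNB, often an antagonist of JUN in proliferation, had 653, 656 and 670.3 CPM against 472, 516 and 469 CPM, a log2 fold change of 0.44 (SE 0.039, adjusted p = 9.95e-08). JUND, the member that is expressed most steadily in resting cells, had 61.2, 65.9 and 67.0 CPM against 81.6, 88.9 and 83.3 CPM and fell by 0.39 (SE 0.045, adjusted p = 2.66e-06). JUN and JUNB were higher and JUND lower in the HFD group, without overlap. EGR1, a zinc finger factor, was the member with the highest CPM here, with 995, 1048 and 1099.7 CPM against 753, 763 and 829 CPM, a log2 fold change of 0.42 (SE 0.043, adjusted p = 5.02e-07). IER2, a short-lived nuclear protein, had a log2 fold change of 0.32 (SE 0.038, adjusted p = 3.57e-06). ATF3 was slightly lower with HFD, at 294, 285 and 288 CPM against 314, 309 and 313 CPM, a difference of -0.11 (SE 0.033, adjusted p = 0.00974). Its call was lost without a filter on low counts (adjusted p = 0.0882) and without HFD replicate 2 (adjusted p = 0.0544). In bulk tumor RNA, fewer cells of a type and less RNA per cell cannot be told apart.

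**Figure D1:**
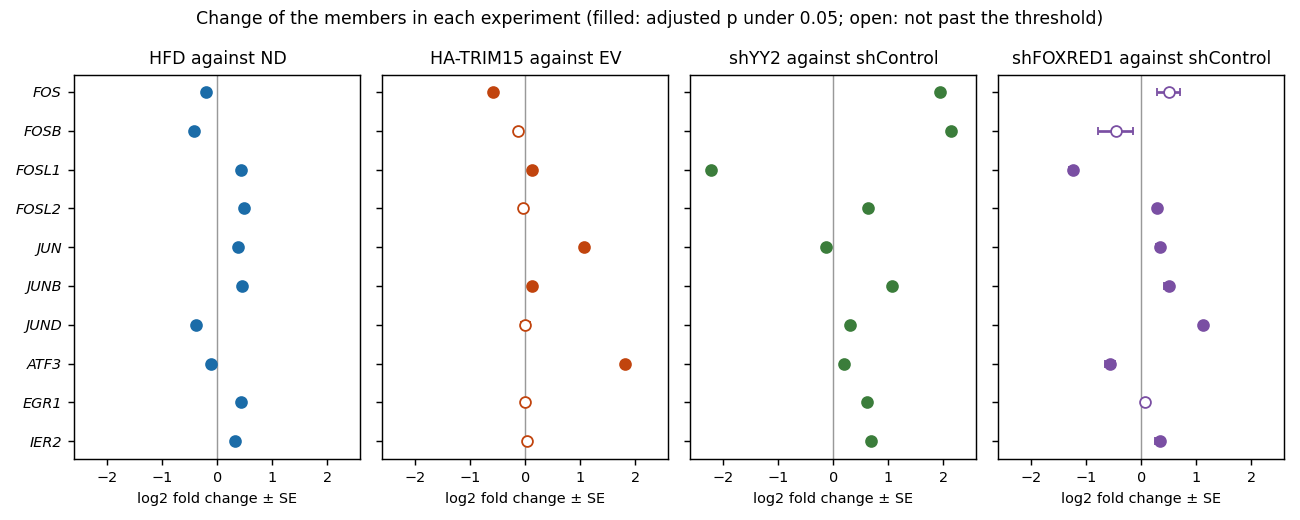
Log2 fold change of each of the 10 members (points) with its standard error (bars) in the 4 experiments, each with 3 treated and 3 control libraries. Filled points passed an adjusted p of 0.05 in edgeR's quasi-likelihood test and open points did not. HFD changes lie within ±0.5, ATF3 and JUN stand out with HA-TRIM15, and FOS and FOSB rise where FOSL1 falls with shYY2.

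In cells with HA-TRIM15, the change was concentrated in ATF3 and JUN, which rose 3.53-fold and 2.1-fold, while FOS fell 1.51-fold. In all, 4 members were higher and 1 lower, beside 12.5% of 15745 genes higher and 9.53% lower, and 5 did not pass the test. A required 2-fold change left ATF3 and JUN, where 0.495% of genes were called higher and 0.229% lower. The median of the members was 0.016, beside -0.0065 over all genes, and the groups did not overlap for 6 members, beside 37.7% of all genes.

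ATF3 had 142, 141 and 134 CPM in the 3 HA-TRIM15 libraries and 39.9, 39.1 and 38.9 CPM in the 3 EV libraries. Its log2 fold change of 1.82 (SE 0.04, adjusted p = 2.07e-13) was larger in size than that of 99.9% of the genes tested. JUN had 461, 429.9 and 409.6 CPM against 214, 201 and 205 CPM, a log2 fold change of 1.07 (SE 0.042, adjusted p = 1.71e-10). All HA-TRIM15 libraries were above all EV libraries for these genes, by more than the spread within either group. FOS had 72.9, 67.8 and 68.3 CPM against 106, 102 and 108 CPM and fell by 0.60 on the log2 scale (SE 0.042, adjusted p = 1.59e-07).

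The remaining members moved little with HA-TRIM15. FOSL1 had 467, 429 and 431 CPM against 406, 407 and 411 CPM, a log2 fold change of 0.12 (SE 0.035, adjusted p = 0.0251). JUNB had 186, 166 and 169 CPM against 161, 159 and 159 CPM, also 0.12 (SE 0.041, adjusted p = 0.0421). The groups did not overlap, but both calls were lost when any of the 3 EV libraries was left out, with adjusted p from 0.0897 for FOSL1 without EV replicate 3 to 0.149 for JUNB without the same library. The JUNB call was also lost without HA-TRIM15 replicate 1 (adjusted p = 0.0722), and both were lost with library totals in place of TMM (adjusted p = 0.0735 for FOSL1 and 0.102 for JUNB). FOSB had 42.0, 46.9 and 43.5 CPM against 49.1, 47.8 and 48.1 CPM, below the EV libraries throughout, with a log2 fold change of -0.13 that did not pass the test (SE 0.048, adjusted p = 0.0615). It passed with library totals (adjusted p = 0.0245), without a filter (adjusted p = 0.0441) and without HA-TRIM15 replicate 2 (adjusted p = 0.0342). For FOSL2, JUND, EGR1 and IER2 the groups overlapped, with log2 fold changes between -0.037 for FOSL2 and 0.036 for IER2 and standard errors from 0.036 to 0.081. JUND had 31.2, 30.6 and 24.3 CPM with HA-TRIM15 against 26.7, 29.6 and 30.1 CPM, so its libraries spread more than the group means differed.

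With shYY2, all 10 members differed from shControl, and within the FOS family FOS rose 3.83-fold while FOSL1 fell 4.66-fold. In this experiment 8 members were higher and 2 lower, beside 36.8% of 16006 genes higher and 38.1% lower. With a 2-fold change required, FOS, FOSB and JUNB were higher and FOSL1 was lower, beside 10.9% and 8.71% of genes. The median of the members was 0.62, beside -0.0081 over all genes. The shYY2 and shControl values were fully separated for each of the 10 members and for 76.3% of all genes.

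FOS had 458, 458 and 450.1 CPM with shYY2 and 123, 119 and 115 CPM with shControl. The log2 fold change was 1.94 (SE 0.031, adjusted p = 1.19e-16). FOSB rose 4.38-fold, from 39.4, 41.8 and 45.4 CPM to 189.6, 177 and 188 CPM, a log2 fold change of 2.13 (SE 0.045, adjusted p = 2.18e-15). The lowest shYY2 library was far above the highest shControl library for both genes. FOSL1 had 78.0, 77.9 and 85.5 CPM against 361, 367 and 398 CPM, a log2 fold change of -2.22 (SE 0.044, adjusted p = 1.15e-15). FOSL2 rose from between 194 and 201 CPM to between 298 and 310.4 CPM, a log2 fold change of 0.63 (SE 0.03, adjusted p = 1.75e-11).

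JUNB rose most among the JUN genes, with 501, 482 and 505 CPM against 233, 239.6 and 235 CPM, a log2 fold change of 1.07 (SE 0.029, adjusted p = 2.79e-14). JUND rose by 0.31 (SE 0.047, adjusted p = 1.9e-05). JUN itself was lower, at 441, 454 and 461 CPM against 514, 512 and 470.2 CPM, a log2 fold change of -0.14 (SE 0.035, adjusted p = 0.00173). The highest shYY2 library and the lowest shControl library for JUN were close to each other, in contrast to the wide gaps for FOS and JUNB. EGR1 had 533, 526 and 598 CPM against 356, 343 and 383 CPM, a log2 fold change of 0.61 (SE 0.047, adjusted p = 6.98e-09). IER2 had 149, 148 and 152 CPM against 90.2, 94.1 and 95.3 CPM, a log2 fold change of 0.69 (SE 0.032, adjusted p = 1.69e-11). ATF3 rose by 0.19 (SE 0.03, adjusted p = 2.78e-05), from 136 CPM in each of the 3 shControl libraries to between 151 and 159 CPM.

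With shFOXRED1, JUND rose 2.18-fold and FOSL1 fell 2.36-fold. The library shFOXRED1 replicate 3 stood apart: the chi-square per gene against its 2 replicates was 7.94 and 6.90, beside 2.16 between those 2. Over all 6 libraries 5 members were higher and 2 lower, beside 16.8% of 15730 genes higher and 19.7% lower, and FOS, FOSB and EGR1 did not pass the test. With a 2-fold change required, JUND was higher and FOSL1 lower, beside 2.19% and 1.27% of genes. The median of the members was 0.31, beside 0.012 over all genes. The groups did not overlap for 8 members, beside 46.7% of all genes. Without replicate 3, 5 members were higher and 3 lower, the further call being FOSB, beside 19.6% and 22.2% of 16362 genes. JUND then had a log2 fold change of 1.17 (SE 0.051), FOSL1 -1.18 (SE 0.053) and JUNB 0.61 (SE 0.052).

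JUND had 176, 179 and 161 CPM in the 3 shFOXRED1 libraries and 80.9, 80.8 and 74.8 CPM in the 3 shControl libraries, a log2 fold change of 1.13 (SE 0.062, adjusted p = 5.96e-10). FOSL1 had 85.6, 86.5 and 75.5 CPM against 199, 204 and 183 CPM, a log2 fold change of -1.24 (SE 0.065, adjusted p = 4.33e-10). The groups lay far apart for both genes, and shFOXRED1 replicate 3 was the lowest of its group for each. JUNB had 204, 201 and 156 CPM against 138, 140.1 and 120.1 CPM, a log2 fold change of 0.50 (SE 0.086, adjusted p = 0.000218). JUN rose by 0.33 (SE 0.076, adjusted p = 0.00215), FOSL2 by 0.29 (SE 0.055, adjusted p = 0.00055) and IER2 by 0.33 (SE 0.087, adjusted p = 0.00622). ATF3 fell by 0.57 (SE 0.089, adjusted p = 8.44e-05), from 25.2, 25.9 and 26.0 CPM to 17.6, 17.2 and 17.2 CPM. EGR1 had 75.3, 77.6 and 72.9 CPM against 74.2, 74.1 and 66.7 CPM, a log2 fold change of 0.071 that did not pass the test (SE 0.065, adjusted p = 0.426).

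FOS and FOSB had few counts in this experiment. FOS had 67, 68 and 56 counts with shFOXRED1 and 46, 40 and 41 with shControl, or 3.72, 3.68 and 3.83 CPM against 2.53, 2.65 and 2.79 CPM. The groups did not overlap, yet the log2 fold change of 0.49 did not pass the test (SE 0.2, adjusted p = 0.0652). It passed with library totals in place of TMM (adjusted p = 0.0403) and with a stricter filter of 10 counts in every library (adjusted p = 0.0483). FOSB had 24, 28 and 40 counts against 40, 52 and 29, and its groups overlapped. Its log2 fold change of -0.47 did not pass the test (SE 0.31, adjusted p = 0.257). It depended on single libraries, and was -0.83 and past the threshold without shFOXRED1 replicate 3 (adjusted p = 0.0329) and -0.19 without shControl replicate 2 (adjusted p = 0.722).

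Whether a member responded differently to separate treatments was tested as the difference of the changes in a fit over all 24 libraries, for pairs of experiments that share no control libraries. All 10 members passed this test for HFD minus HA-TRIM15, beside 28.4% of 17980 genes, and all 10 passed for shYY2 minus shFOXRED1, with or without shFOXRED1 replicate 3, beside 55.5% in the fit over all libraries. ATF3 differed most between HFD and HA-TRIM15, with a difference of log2 fold changes of -1.93 (SE 0.048, adjusted p = 3.47e-23), followed by JUN with -0.69 (SE 0.066, adjusted p = 1.37e-09). JUN rose in both comparisons, further with HA-TRIM15, whereas ATF3 rose with HA-TRIM15 and was slightly lower with HFD. FOSL2 and EGR1 differed in the other direction, by 0.52 (SE 0.051, adjusted p = 2.16e-09) and 0.43 (SE 0.072, adjusted p = 2.36e-05). The IER2 difference of 0.29 (SE 0.085, adjusted p = 0.00967) did not pass with library totals (adjusted p = 0.0631) or without HA-TRIM15 replicate 3 (adjusted p = 0.0506). FOSB differed most between shYY2 and shFOXRED1, by 2.66 (SE 0.24, adjusted p = 5.03e-11), then FOS by 1.48 (SE 0.14, adjusted p = 1.28e-10). Both genes had only 24 to 68 counts in the FOXRED1 experiment, where their own changes had SEs of 0.31 and 0.2. The joint fit shares the spread of a gene over all 24 libraries, so its SEs may be too small here. In shControl, FOS was 44.7 times and FOSB 16.6 times as high in the YY2 experiment, and the part of this starting level was not tested. FOSL1 fell in both knockdowns, further with shYY2 by -0.94 (SE 0.082, adjusted p = 3.59e-11). JUND rose in both, further with shFOXRED1, with a difference of -0.77 (SE 0.09, adjusted p = 1.3e-08).

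Levels were set across experiments only as a description, after TMM over all 24 libraries, since each experiment had its own count table. FOS ranged over more than 2 orders of magnitude: the group means were 462 CPM with shYY2, 439.6 in ND, 382 in HFD, 118 in the shControl of the shYY2 experiment, 109 in EV, 71.5 with HA-TRIM15, 3.69 with shFOXRED1 and 2.64 in its shControl. No neighbours in this order overlapped, although shYY2 (455 to 468 CPM) and ND (431 to 453 CPM) came close. The shControl groups of the YY2 and FOXRED1 experiments carry the same label and time, but FOS was 44.7 times as high in the former, FOSB 16.6 times and JUN 11.4 times. FOSL2 and JUNB differed by 1.38 and 1.77 times, and JUND had a ratio of 0.57, higher in the FOXRED1 experiment. JUND was highest with shFOXRED1, at 158 to 178 CPM, and lowest with HA-TRIM15 and EV, which overlapped at 24.9 to 32.1 CPM and 27.4 to 31.0 CPM. FOSL1 was highest with HA-TRIM15, followed by EV, HFD and the shControl of the shYY2 experiment, of which each overlapped the one before it except EV. FOSL1 was lowest with shYY2 and shFOXRED1, at 78.9 to 86.4 CPM and 74.3 to 85.7 CPM, which overlapped. The part of batch, passage or culture in these differences between experiments was not tested.

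**Figure D2:**
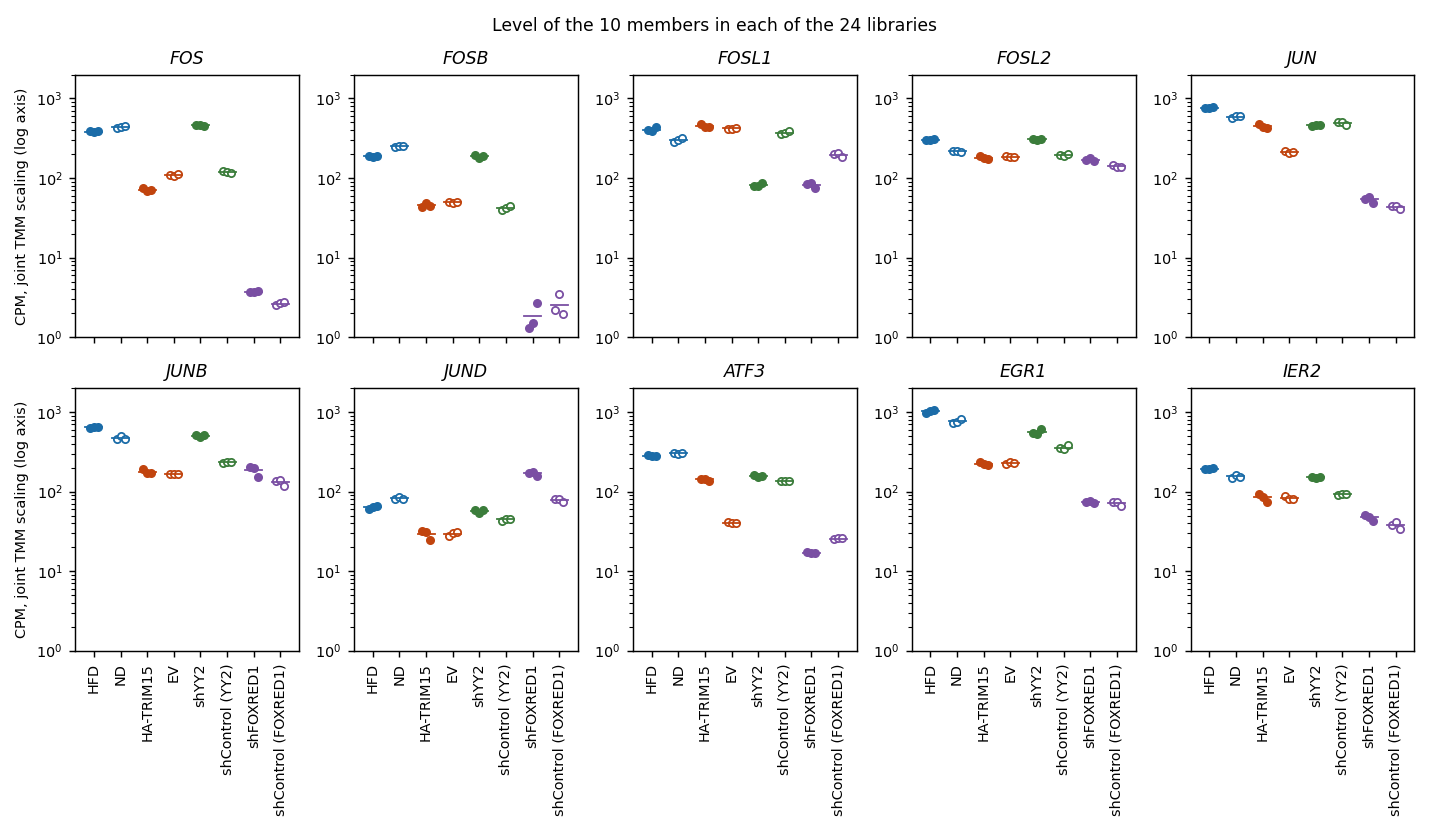
CPM after joint TMM scaling (log axis) of each member in the 24 libraries, with treated groups as filled and control groups as open points and group means as bars (n = 3). FOS and FOSB drop to between 1.31 and 3.77 CPM in the FOXRED1 experiment, while JUND is highest with shFOXRED1.

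Since the members differ in length, the makeup of each family was compared in CPM per kilobase of exon, as the share of the summed level of the family. Lengths were those of all exons of a gene in GENCODE 29, merged, and not of the transcripts expressed. The shares describe mRNA and not protein. In the FOS family, FOSL1 held 76.5% of the total in EV and 81.3% with HA-TRIM15, 43.2% in ND and 52.6% in HFD. In cells with shYY2 it held 16.4%, against 73.4% in their shControl, and FOS held 54.3%, against 13.6%. The leading member by mRNA thus switched from FOSL1 to FOS. The summed level of the family was 260 to 265 CPM per kilobase with shYY2 and 261 to 280 with shControl, which overlapped. With shFOXRED1 the family total was 63.9 to 71.6 CPM per kilobase against 116 to 129, and FOSL2 held 34.8% against 15.9%. The ratio of FOS to FOSL1 per kilobase was 3.07 to 3.43 with shYY2 and 0.169 to 0.198 in its shControl. In the xenografts it was 0.517 to 0.565 with HFD and 0.824 to 0.873 with ND.

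In the JUN family, JUNB had the highest mean share in 6 of the 8 groups, with 58.5% of the summed CPM per kilobase in HFD and 63.3% with shYY2. JUN led with HA-TRIM15, at 52.5% against 36.1% in EV, and in the shControl of the shYY2 experiment, at 47.8%. JUND held 44% with shFOXRED1, where it was above JUNB in replicate 3 at 46.3% against 46.1%, and 33.2% in its shControl, and between 5.61% and 9.57% in the means of the other 6 groups. The summed level of the family was 227 to 256 CPM per kilobase with HA-TRIM15 against 165 to 167 in EV, and 427 to 444 with shYY2 against 284 to 298.

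**Figure D3:**
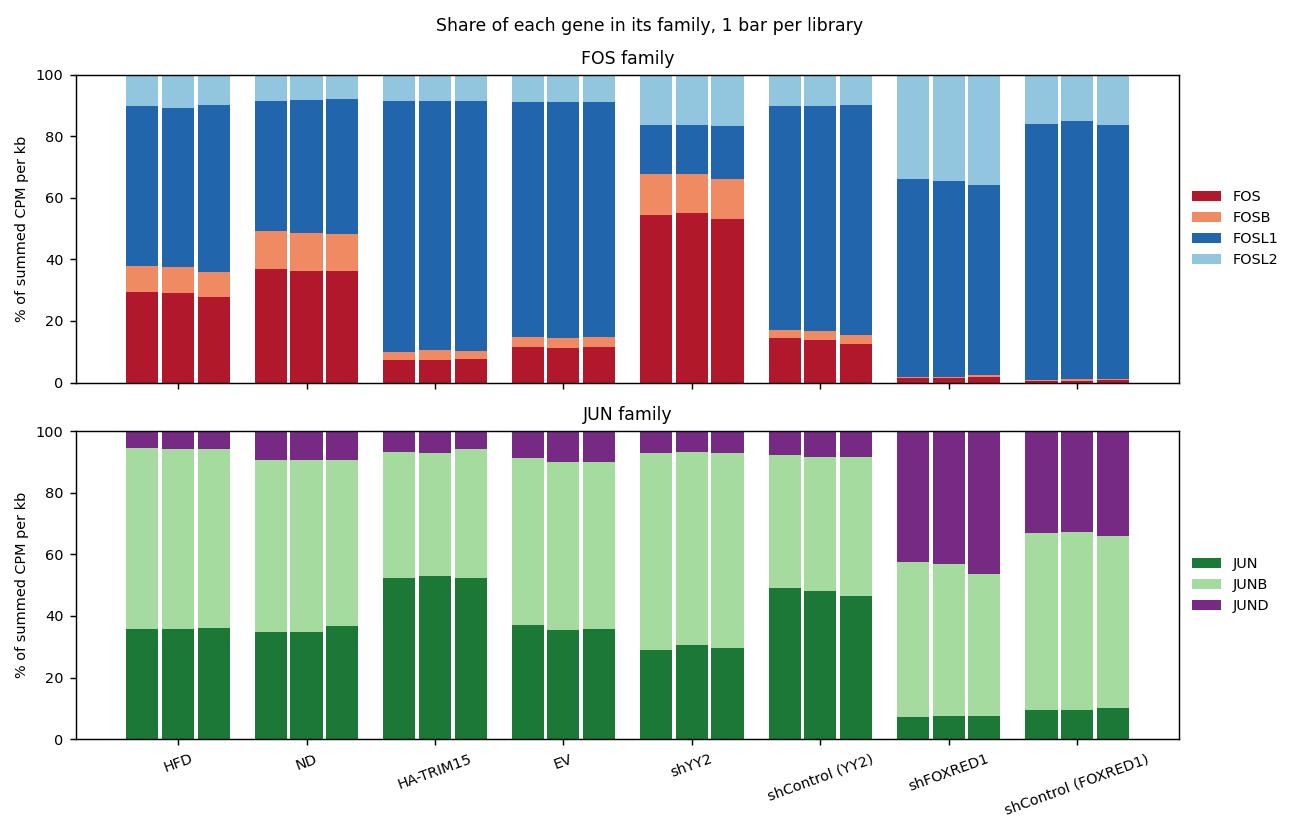
Share of each gene in the summed CPM per kilobase of the FOS family (upper panel) and JUN family (lower panel), as % in 1 stacked bar per library, 3 libraries per group. FOS makes up 53.2% to 55.2% of the FOS family in the shYY2 libraries and 12.6% to 14.4% in their shControl libraries, and JUND 42.5% to 46.3% of the JUN family with shFOXRED1.

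To show which genes had patterns most like those of the members, Pearson's r was taken over the 24 libraries on log2(CPM + 0.5), each library relative to the control mean of its experiment, among 14519 genes tested in all experiments. The genes share libraries and scaling, and r is given as a description. Most like FOS were IKBKB (r = 0.991), a kinase of the NF-kappaB pathway, ALDH3B1 (r = 0.987) and an unnamed gene (r = 0.984). For FOSL1 they were NOLC1 (r = 0.995), CCND1 (r = 0.994), which encodes cyclin D1, and FERMT1 (r = 0.993). JUN was most like PPP1R15A (r = 0.945), which encodes the stress-induced phosphatase subunit GADD34, RCAN1 (r = 0.937) and ZFAS1 (r = 0.928), and ATF3 most like MXD1 (r = 0.934), NEDD4L (r = 0.932) and PCF11 (r = 0.912). Among the members, JUNB and IER2 had r = 0.977, FOSL2 and EGR1 r = 0.939 and JUN and ATF3 r = 0.731, while FOS and FOSL1 had r = -0.921.

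Other genes of the response were taken from lists that were chosen with earlier results of these data known. In the HFD xenografts, 20 of 40 other immediate early genes rose and 6 fell. All genes had 25.6% higher and 23.9% lower. The median change of the list on the log2 scale was 0.18, beside -0.012 for all genes. The antiproliferative gene BTG2 had 0.99 (SE 0.062, adjusted p = 1.75e-09), while NR4A2, an orphan nuclear receptor, had -0.75 (SE 0.047, adjusted p = 1.87e-09). With HA-TRIM15, 23 of 39 tested genes were higher and 3 lower, beside 12.5% and 9.53% of all genes, with a median of 0.21, beside -0.0065. The stress genes GADD45A and GADD45B led, at 1.27 (SE 0.042, adjusted p = 4.22e-11) and 1.17 (SE 0.066, adjusted p = 1.35e-08). With shYY2, 27 of 40 were higher and 9 lower, beside 36.8% and 38.1% of all genes, with a median of 0.46, beside -0.0081. CCN2, a matricellular protein gene, and EGR3 had 3.37 (SE 0.042, adjusted p = 2.16e-17) and 2.78 (SE 0.13, adjusted p = 1.4e-11), while DUSP6, a MAP kinase phosphatase, had -1.80 (SE 0.051, adjusted p = 4.31e-14). With shFOXRED1, 10 of 38 were higher and 11 lower, beside 16.8% and 19.7% of all genes, with a median of 0.034, beside 0.012. Without shFOXRED1 replicate 3 these were 15 and 12 of 39, beside 19.6% and 22.2% of all genes. IER5L had 1.36 (SE 0.1, adjusted p = 2.64e-08), and CCN2, raised by shYY2, had -1.88 (SE 0.21, adjusted p = 2.22e-06).

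Among 13 other bZIP partners, such as the BATF and small MAF proteins, 5 were higher and 4 lower of 11 tested with HFD, 2 and 1 of 11 with HA-TRIM15, 5 and 3 of 11 with shYY2, and 2 and 0 of 10 with shFOXRED1 (5 and 0 of 11 without replicate 3). These small counts stand beside the shares of all genes called, which were 25.6% higher and 23.9% lower with HFD, 12.5% and 9.53% with HA-TRIM15, 36.8% and 38.1% with shYY2, and 16.8% and 19.7% with shFOXRED1. Without shFOXRED1 replicate 3 the shares of all genes were 19.6% and 22.2%. MAFF rose with HFD (log2 fold change 0.56, SE 0.036, adjusted p = 2.77e-09) and HA-TRIM15 (0.38, SE 0.06, adjusted p = 0.000451). BATF fell in the same comparisons, by 0.63 (SE 0.085, adjusted p = 1.26e-05) and 0.32 (SE 0.11, adjusted p = 0.0444). Of 26 upstream kinases and factors, 12 were higher and 4 lower with HFD, 5 and 6 with HA-TRIM15, 10 and 12 with shYY2, and 5 and 5 with shFOXRED1 (7 and 8 without replicate 3). With shYY2 and with all shFOXRED1 libraries these counts were near the shares of all genes just given. Without shFOXRED1 replicate 3 they were 26.9% and 30.8% of the 26, beside 19.6% and 22.2% of all genes. RPS6KA3, which encodes the kinase RSK2, rose with HFD (log2 fold change 0.96, SE 0.04, adjusted p = 1.74e-11) and fell with shFOXRED1 by 0.48 (SE 0.066, adjusted p = 2.04e-05). With shYY2, MAPK3 (ERK1) rose by 0.93 (SE 0.04, adjusted p = 6.33e-12), while MAPK9 (JNK2) fell by 1.17 (SE 0.036, adjusted p = 1.26e-13).

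Among known AP-1 target genes, more were called higher than lower in the HFD and HA-TRIM15 comparisons and more lower than higher in the knockdowns, which was not tested against other genes. With HFD, 18 of 27 tested targets were higher and 6 lower, beside 25.6% and 23.9% of all genes, with a median log2 fold change of 0.35. IL11, a cytokine gene, had 1.21 (SE 0.12, adjusted p = 4.22e-07), while the protease MMP10 had -1.60 (SE 0.11, adjusted p = 3.95e-09). Both genes were low, with mean CPM of 6.72 with HFD against 2.87 for IL11, and 2.57 against 7.93 for MMP10. With HA-TRIM15, 16 of 26 were higher and 3 lower, beside 12.5% and 9.53% of all genes, with a median of 0.23, and the chemokine CXCL8 led with 1.56 (SE 0.044, adjusted p = 5.41e-12). With shYY2, 6 of 26 were higher and 18 lower, beside 36.8% and 38.1% of all genes, with a median of -0.73. CXCL8 fell there from 103 to 8.52 mean CPM, a log2 fold change of -3.59 (SE 0.058, adjusted p = 1.29e-16), and CCND1 had -1.59 (SE 0.033, adjusted p = 1.54e-15). Among the targets higher with shYY2, CCN2 had 3.37 (SE 0.042, adjusted p = 2.16e-17) and KRT16 had 0.87 (SE 0.056, adjusted p = 8.72e-10). CCN2 is also in the list of other immediate early genes. With shFOXRED1, 3 of 26 were higher and 14 lower, beside 16.8% and 19.7% of all genes, with a median of -0.41. Without shFOXRED1 replicate 3, 3 were higher and 16 lower, beside 19.6% and 22.2% of all genes, with a median of -0.54. The collagenase MMP1 fell from 215 to 34.4 mean CPM, a log2 fold change of -2.64 (SE 0.063, adjusted p = 1.67e-14).

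Markers of other cells and of stress were read beside these results. The 8 epithelial markers summed to 13708 to 13902 CPM with HFD against 12434 to 12710 CPM with ND, and to 15865 to 16374 CPM with shYY2 against 11959 to 12731 CPM, without overlap. With HA-TRIM15 they summed to 10956 to 12147 CPM against 11666 to 11928 CPM, and with shFOXRED1 to 13493 to 15692 CPM against 14459 to 15171 CPM, which overlapped. KRT19 made up much of these sums, with means of 10039 CPM with shYY2 and 6442 CPM in its shControl. Of the 8 markers, 4 were called higher and 4 lower with shYY2, beside 36.8% and 38.1% of all genes. With HFD 5 were higher and 1 lower, beside 25.6% and 23.9%, the lower one being CDH1 (-0.31, SE 0.032, adjusted p = 5.84e-07). Of 7 fibroblast markers only COL1A1 was tested, and the 7 summed to 23.7 to 27.1 CPM with HFD and 30.5 to 33.5 CPM with ND, whereas they summed to 42.4 to 43.9 CPM with shYY2 against 10.5 to 11.2 CPM, and to 38.4 to 41.8 CPM with shFOXRED1 against 24.2 to 25.5 CPM. COL1A1 alone made up most of these sums, with means of 25.5 CPM with HFD, 31.6 CPM with ND and 42.7 CPM in the cultured cells with shYY2. COL1A1 rose in both knockdowns, by 2.00 with shYY2 (SE 0.059, adjusted p = 7.28e-14) and by 0.71 with shFOXRED1 (SE 0.078, adjusted p = 1.53e-06). With HA-TRIM15 the 7 summed to 11.1 to 11.9 CPM against 12.1 to 13.3 CPM. The part of these shifts in the changes of the members was not tested. The 4 endothelial markers summed to at most 0.889 CPM, the 6 leukocyte markers to at most 10.8 CPM and the 7 adipocyte and erythrocyte markers to at most 10.6 CPM. The human-gene counts thus held few reads from such markers, but how reads of the mouse host were assigned is not given in the sources used here, and their part in the xenograft values was not tested. Of 10 heat shock genes, 8 were higher and 0 lower with HFD, 0 and 4 with HA-TRIM15, 1 and 9 with shYY2, and 1 and 5 with shFOXRED1. Over all genes, 25.6% were called higher and 23.9% lower with HFD, 12.5% and 9.53% with HA-TRIM15, 36.8% and 38.1% with shYY2, and 16.8% and 19.7% with shFOXRED1. HSPD1 rose with HFD by 1.09 (SE 0.039, adjusted p = 2.35e-12) and HSPH1 fell with shYY2 by 1.84 (SE 0.033, adjusted p = 3.56e-16). The part of handling or stress in the changes of the members was not tested.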

How the data were processed

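RNA-seq of 24 OE33 libraries (4 experiments, 3 treated and 3 control libraries each) was analysed. The authors deposited raw counts per gene for 61860 Ensembl identifiers, 1 table per experiment, without normalization. The submitters' processing notes name hg38 and mm10. The aligner, counter and handling of host reads are not given in the sources used here. Groups came from the sample titles and treatment labels, and 0 columns were left unused. The header of the HA-TRIM15 table has empty cells, so its columns were taken by number.

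In R 4.3.3 with edgeR 4.0.16, genes were kept per experiment with filterByExpr (minimum count 10, minimum total 15), scaled by TMM and tested by quasi-likelihood (glmQLFit, then glmQLFTest). Benjamini-Hochberg adjustment covered every gene in the fit, and 0.05 was the threshold. An SE is the absolute log2 fold change over the root of the F statistic. Alternatives were DESeq2 1.42.0, its size factors, library totals, other filters, the replicate number as a block, a fold of 2 and leaving out each library. List counts without shFOXRED1 replicate 3 were added after seeing the data. The procedure was tested on simulated data. No replicate pair agreed within sampling noise (chi-square per gene 1.47 to 7.94). Coordinates are GRCh38.

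Members, lists and tests were chosen with earlier results of these data known. Besides members, the text names up to 2 genes per list, direction and experiment with the largest change past the threshold and a mean of at least 1 CPM, genes a result turns on, and the 3 genes most like FOS, JUN, FOSL1 and ATF3. Some genes that this rule would name are not reported here.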

Additional observations from a re-analysis of the deposited data

How the results depend on the processing

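Of 840 values of single members under alternatives, 814 kept their direction and side of the threshold, 13 lost and 6 gained a call, and 7 changed sign. The sign changes were all in HA-TRIM15, for genes that passed in no fit, when a library was left out: IER2 ranged from -0.049 to 0.12, EGR1 from -0.044 to 0.017 and JUND from -0.077 to 0.098 on the log2 scale. Requiring a fold of 2 lowered the counts of members higher and lower to 0 and 0 with HFD, 2 and 0 with HA-TRIM15, 3 and 1 with shYY2 and 1 and 1 with shFOXRED1. With HA-TRIM15, library totals gave 2 higher and 2 lower, no filter gave 2 lower, and leaving out a library gave 2 to 4 higher and 1 to 2 lower, because of FOSL1, JUNB and FOSB. Library totals shifted the median log2 fold change of all genes in the xenografts from -0.012 to -0.12, and moved the share of calls that were higher from 51.7% to 30.4% with HFD, from 56.8% to 40.6% with HA-TRIM15 and from 46.1% to 57.3% with shFOXRED1. The members' directions in the xenografts did not change with it. Replicate numbers did not pair libraries: same-numbered libraries correlated by at most 0.097 in their deviations, and a replicate block changed no call of a member, with 6 higher and 4 lower under HFD, 4 and 1 with HA-TRIM15, 8 and 2 with shYY2 and 5 and 2 with shFOXRED1. FOS and FOSB had 24 to 68 counts in the FOXRED1 experiment, at total counts of 14299807 to 18522633 per library.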
